A study of Mus musculus with 2 samples.

Results

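The cytosolic ribosomal protein genes were described in CD45+ cells of the inflamed mouse colon. Members were all genes whose symbol was Rps or Rpl followed by a digit, with Rpsa, Rplp0, Rplp1 and Rplp2 added and symbols containing -ps left out, which gave 97 of the 32228 genes in the matrices. Of these, 77 encode the usual subunits of the cytosolic ribosome, 31 of the small and 46 of the large subunit. A further 8 are paralogues (Rpl10l, Rpl22l1, Rpl36al, Rpl39l, Rpl3l, Rpl7l1, Rps27l and Rps27rt), and the other 12 encode no subunit although their symbols match, mainly the Rps6k kinases and also Rps19bp1 and Rps23rg1. The label therefore fits most but not all members, and the 77 subunit genes are given apart from the rest. Fau and Rack1, which also encode ribosomal proteins, fall outside the symbols and were not members.

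The study asked how loss of Ring1a, a catalytic protein of the chromatin-modifying Polycomb repressive complex, changes immune cells of the lamina propria (LP) in colitis caused by dextran sulfate sodium (DSS). Pooled WT mice gave 1 library and pooled Ring1a knockout (Ring1AKO) mice the other, all given DSS, both on the C57BL/6 background, with no tissue-restricted driver named for the knockout, and 8 to 10 weeks old by the labels, with the epithelium removed and live (7-AAD-) CD45+ cells sorted. With 1 library per group there was no replicate, no test was made, and genotype and library batch cannot be told apart. All intervals are exact 95% intervals that cover counting error only.

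Each ribosome holds a single copy of nearly every ribosomal protein, and the cell makes the subunits in step. In mammals the mRNAs of most of these genes begin with a C followed by a run of pyrimidines, the 5′ terminal oligopyrimidine (TOP) tract, through which mTOR and LARP1 adjust their translation and stability together. Resting lymphocytes carry a large part of their mRNA as ribosomal protein mRNA, whereas plasma cells fill theirs with immunoglobulin transcripts and mature neutrophils make few new ribosomes.

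Start sites are shown for some of the members whose departures between cell classes are described below, with a paralogue beside its usual subunit. Each window runs 15 bases either side of a start annotated by RefSeq on GRCm38.p6, on the gene's strand. Capitals mark a C followed by at least 4 pyrimidines that begins within 5 bases of that start, extended to the end of the run. Rps27l has a second annotated start, with its window at chr9:66946398-66946427 (plus), which is not shown and held no such run.
Rps27: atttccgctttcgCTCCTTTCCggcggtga
Rps27l: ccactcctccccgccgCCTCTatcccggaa
Rpl36a: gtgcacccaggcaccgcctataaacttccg
Rpl36al: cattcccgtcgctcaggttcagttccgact
Rps9: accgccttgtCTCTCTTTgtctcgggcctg
Rps18: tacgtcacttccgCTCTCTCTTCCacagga
Rpl12: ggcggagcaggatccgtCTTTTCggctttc
Rpl10: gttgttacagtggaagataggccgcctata
Rpl41: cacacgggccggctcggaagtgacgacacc
The windows lie at chr3:90213634-90213663 (minus strand) for Rps27, chr9:66946071-66946100 (plus) for Rps27l, chrX:134585639-134585668 (plus) for Rpl36a, and chr12:69184053-69184082 (minus) for Rpl36al. Those of the other genes are chr7:3704026-3704055 (plus) for Rps9, chr17:33955651-33955680 (minus) for Rps18, chr2:32961697-32961726 (plus) for Rpl12, chrX:74270801-74270830 (plus) for Rpl10 and chr10:128549154-128549183 (minus) for Rpl41. Of the 77 subunit genes, 57 were matched by symbol in the RefSeq promoter table, and 27 of them (47.4%) held such a run, against 5718 of all 27025 genes (21.2%). A match is a description of the letters, and a window without a run says nothing about the mRNA, since the annotated start may lie away from the one in use.

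Barcodes were kept with at least 1000 UMIs, at least 500 genes and under 5% mitochondrial UMIs, with no limit on ribosomal UMIs. This left 6005 of the WT library and 7918 of the Ring1AKO library, with medians of 6354 and 5035 UMIs, and 11 barcode sequences occurred in both libraries (0.183% and 0.139%). Barcodes were classed by marker genes, none of them ribosomal, and 12 classes with at least 50 barcodes in each library were used. The 828 and 898 barcodes that passed several gates were left out. Most genes checked that were kept out of the gates followed the class names. Cd79a was highest in B-like, Jchain in plasma-like, Lyz2 in monocyte/macrophage-like and S100a9 in neutrophil-like barcodes of both libraries. Ctla4 was highest in Treg-like and Nkg7 in NK/ILC1-like barcodes of both. Il2ra was highest in Treg-like barcodes of the WT library (367 CPM, with 360 in ILC3-like). In the Ring1AKO library it was highest in ILC2-like barcodes (413 CPM, with 276 in Treg-like). Ring1 had 558 UMIs in the classes of the WT library (13.6 CPM) and 556 in those of the Ring1AKO library (12.2 CPM). Counts at the 3′ end do not check the knockout unless the deleted part lies there, which the sources used here do not say, so the libraries are named by their labels. Summed over the 12 classes, all 5 epithelial, 4 fibroblast and 4 hemoglobin genes were detected in both libraries. Their summed levels per class ran from 8.75 to 821 and from 4.89 to 95.4 CPM (epithelial, WT and Ring1AKO), from 0 to 283 and from 0 to 473 CPM (fibroblast), and from 6.58 to 29.1 and from 10.2 to 4887 CPM (hemoglobin, highest in CD8 T-like barcodes of the Ring1AKO library).

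The members took between 4.82% and 36.1% of the UMIs of a class. B-like, ILC2-like and T-like barcodes other than Treg-like held the upper end. In the WT library the summed share was 32.7% in B-like, 31.7% in ILC2-like, 31.0% in CD8 T-like, 29.4% in gamma-delta T-like and 29.2% in CD4 T-like barcodes. It was 23.8% in NK/ILC1-like, 23.5% in Treg-like, 22.6% in dendritic-like, 21.1% in ILC3-like and 18.8% in monocyte/macrophage-like barcodes. Plasma-like barcodes had 10.2% and neutrophil-like barcodes 5.12%. The same order held in broad terms in the Ring1AKO library, with 36.1% in B-like, 32.8% in CD4 T-like, 32.3% in ILC2-like and 32.0% in CD8 T-like barcodes at the top and 7.61% in plasma-like and 4.82% in neutrophil-like barcodes at the bottom. Neighbouring classes overlapped widely barcode by barcode. In the WT library the middle 50% of barcodes spanned 23.6% to 33.0% in CD4 T-like and 24.8% to 32.9% in gamma-delta T-like, so the order of those classes says little about single cells.

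**Figure D1:**
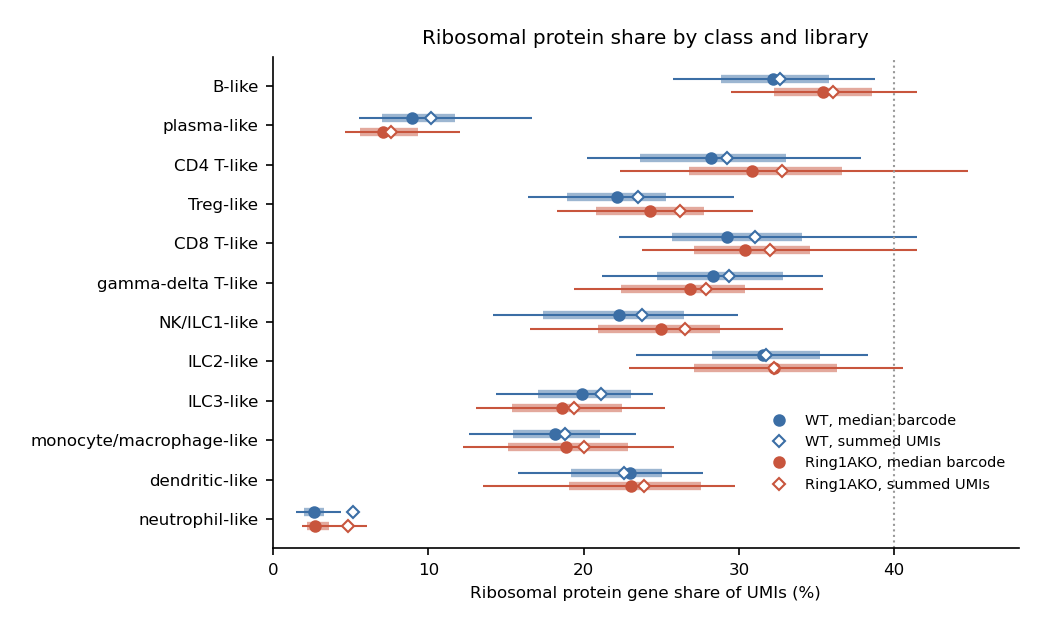
Share of UMIs from the 97 members (x axis, percent) in 12 marker-gated classes and both libraries. Filled circles are the median barcode, thick bars the middle 50%, thin lines the 10th to 90th percentile, open diamonds the share of the summed UMIs, and the dotted line 40%. B-like barcodes sit near 32% to 36% and neutrophil-like barcodes near 3%.

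The position of plasma-like barcodes depended on what the share was taken of. Immunoglobulin genes made up 59.0% of plasma-like UMIs in the WT library and 69.6% in the Ring1AKO library. Without immunoglobulin and mitochondrial UMIs the members took 25.8% and 26.2%, close to dendritic-like and Treg-like barcodes, while B-like barcodes had 34.1% and 37.8%. Neutrophil-like barcodes stayed at 5.21% and 4.92%. Within neutrophil-like barcodes the summed share was well above the median barcode, 5.12% against 2.63% in the WT library and 4.82% against 2.70% in the Ring1AKO library, and single barcodes reached 27.9% and 29.1%. Barcodes with under 100 UMIs, which hold cell-free RNA, had a share of 17.3% and 20.2%, several times that of neutrophil-like barcodes, and the part of cell-free RNA in the neutrophil-like share was not tested. A share alone does not tell fewer ribosomal protein transcripts per cell from more transcripts of other genes. In the WT library the members had 1978422 UMIs in 1185 B-like, 1452388 in 482 plasma-like and 49566 in 203 neutrophil-like barcodes. Of these 3 classes, captured member UMIs per barcode were thus most in plasma-like and fewest in neutrophil-like barcodes, and the order was the same in the Ring1AKO library. How closely captured UMIs follow transcripts per cell was not tested.

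A limit on ribosomal UMIs removed mostly lymphocytes, and not the same ones in both libraries. Of the kept barcodes, 254 of 6005 (4.23%, 3.73 to 4.77) in the WT library and 848 of 7918 (10.7%, 10.0 to 11.4) in the Ring1AKO library had at least 40% ribosomal protein UMIs. T-lineage barcodes made up 59.1% of those in the WT library and B-like barcodes 29.5%. The T-lineage count of 150 held 54 barcodes that fitted no T-like class and lie outside the 12 classes. In the Ring1AKO library the order was turned, with 69.7% B-like and 23.7% T-lineage (201 barcodes, 74 of them outside the 12 classes). Among B-like barcodes, 75 of 1185 (6.33%, 5.01 to 7.87) and 591 of 3594 (16.4%, 15.2 to 17.7) were over the limit, or 6.92% and 17.6% after thinning to 1000 UMIs each. CD4 T-like barcodes had 8.10% and 17% over it (8.33% and 16.7% thinned), CD8 T-like barcodes 12.1% and 11.3% (12.3% and 11.1% thinned), and plasma-like, monocyte/macrophage-like, ILC3-like and neutrophil-like barcodes none in either library. The highest of the upper bounds for these 4 classes was 4.93% (ILC3-like, WT). With the limit in place B-like barcodes went from 19.7% to 19.3% of the WT library and from 45.4% to 42.5% of the Ring1AKO library, and the log2 ratio of their shares from 1.202 to 1.14.

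Next, the make-up of the ribosomal protein UMIs was compared between classes, which takes out how large the sum is. A departure is the log2 of a gene's share of ribosomal protein UMIs in a class over the mean of its shares in the other classes. It was called at 0.5 or more in size with the same sign in both libraries, in genes with at least 100 UMIs in the class in each. A very high share in a single class enters the mean used for every other class and lowers their departures, so calls on a gene are not independent. The filter was passed in at least 1 class by 88 of the 97 members and in all 12 classes by 79. Of 983 gene and class pairs of members, 47 were called (4.78%), against 44.0% of 26774 pairs of all genes outside the list, which have lower counts and were scaled to their own sum. Among the 77 subunit genes, 27 of 924 pairs were called, 11 higher and 16 lower, and 58 of the 77 were called in no class. The small-subunit genes held between 42.9% and 48.4% of the subunit UMIs in every class and library. The mixture of subunit mRNAs was thus nearly even across classes, and the called subunit genes were mainly those of plasma-like and neutrophil-like barcodes. Genes outside the list were also called most often there, 83.9% of those tested in plasma-like and 70.3% in neutrophil-like barcodes. The highest value in any other class was 46.9%, in monocyte/macrophage-like barcodes. More frequent calls in plasma-like and neutrophil-like barcodes were therefore not particular to ribosomal protein genes.

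**Figure D2:**
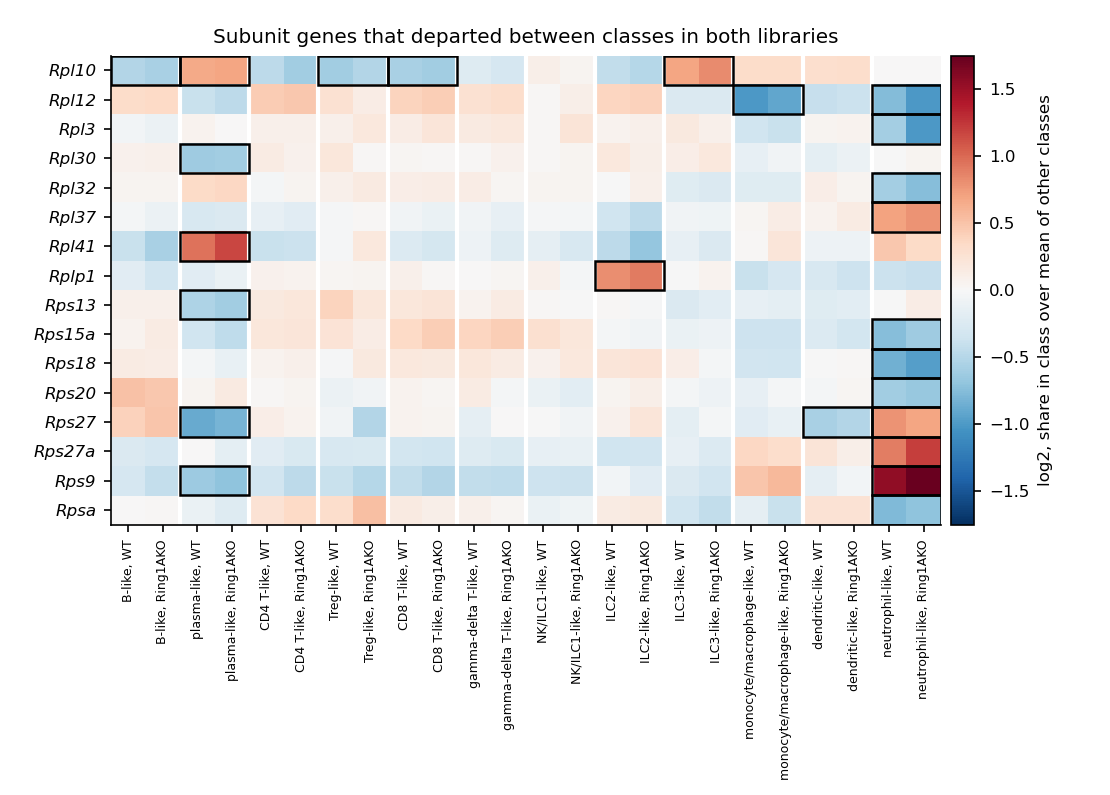
Departures (colour, log2 of the share in a class over the mean of the other classes) of subunit genes called in at least 1 class, with the WT and Ring1AKO libraries side by side. Black frames mark called pairs. Rps9, Rps27a, Rps27 and Rpl37 are higher and 7 genes lower in neutrophil-like barcodes, and Rpl10 and Rpl41 are higher in plasma-like barcodes.

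Neutrophil-like barcodes departed most among small-subunit genes. Rps9, which encodes a small-subunit protein near the mRNA entry, took 4.51% of ribosomal protein UMIs in the WT library and 5.13% in the Ring1AKO library (2237 and 2955 UMIs), departures of 1.56 and 1.73. In all other classes Rps9 lay between 1.19% and 2.43% (WT) and between 1.18% and 2.63% (Ring1AKO), so the groups of values did not overlap, and monocyte/macrophage-like barcodes came next. Rps27a, whose product is made as a fusion with ubiquitin, took 2.79% and 3.41% (departures 0.89 and 1.204). Rps27, a zinc-finger protein of the small subunit, took 3.46% and 3.12% (0.79 and 0.69), and Rpl37, a small protein of the large subunit, 2.07% and 1.87% (0.70 and 0.78).

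Lower shares in neutrophil-like barcodes were found for 7 subunit genes. Rps18, a protein of the small subunit's head, took 0.726% and 0.704% (departures -0.84 and -0.97), and Rpl12, at the base of the stalk that recruits elongation factors, 0.589% and 0.560% (-0.75 and -1.002). Rpsa, which is also known as a laminin receptor, took 0.793% and 1.03% (-0.77 and -0.70). The others were Rps15a, Rps20, Rpl32 and Rpl3, with departures from -0.59 to -0.75 in the WT library and from -0.62 to -1.01 in the Ring1AKO library. Genes on the opposite strand are annotated over Rps18, Rpl12, Rpl32, Rpl3 and Rps27a here. The same holds for some genes named below, among them Rpl30, Rpl35a, Rps28, Rpl31, Rpl22l1, Rpl7l1, Rps27rt and Rps6kb2. Whether strand was used in counting is not given in the sources used here. For the 6 neutrophil-like genes named by the largest size, both libraries stayed past 0.5 under each alternative that could change a departure; the one that leaves immunoglobulin and mitochondrial UMIs out of the denominator could not. With every barcode counting once the departures grew, to 2.30 and 2.21 for Rps9 and to -2.03 and -1.44 for Rpl12. The epithelial sum was 776 CPM in neutrophil-like barcodes of the WT library and 17.6 CPM in those of the Ring1AKO library, and the fibroblast sum 283 and 473 CPM; their part in these departures was not tested.

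Rpl12 also stood apart in monocyte/macrophage-like barcodes, at 0.499% and 0.596% of ribosomal protein UMIs (departures -1.003 and -0.91). Its highest shares were those of CD4 T-like barcodes, 1.26% and 1.44%, which missed the fold in both libraries (0.44 and 0.47). The gene opposite Rpl12 is Lrsam1. Rpl12 was the only subunit gene called in monocyte/macrophage-like barcodes, where Rps9, Rpl35a and Rps28 were next on the higher side (0.49 and 0.57, 0.48 and 0.60, and 0.44 and 0.57).

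Plasma-like barcodes departed at Rpl41 and Rpl10 on the higher side. Rpl41, which encodes a very short basic peptide of the large subunit, took 3.68% and 3.60% of ribosomal protein UMIs, departures of 0.94 and 1.17. Rpl10, an X-linked gene whose protein joins late and lets the subunits couple, took 2.10% and 2.22% (0.67 and 0.68). On the lower side were Rps27 at 1.2% and 1.21% (-0.88 and -0.81), Rps9 at 1.19% and 1.18% (-0.63 and -0.70), Rps13 (-0.53 and -0.61) and Rpl30 (-0.62 and -0.60). Rps27 and Rps9 thus had their lowest shares in plasma-like barcodes and were called higher in neutrophil-like barcodes of both libraries. The calls in these classes are not independent, since the neutrophil-like share is part of the mean used for plasma-like barcodes. Rps9 took 1.39% and 1.34% in Treg-like barcodes, near its plasma-like shares. The plasma-like pairs named here were again called when each barcode counted once.

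Rpl10 separated classes in another way. Its share was 2.13% and 2.41% in ILC3-like barcodes (departures 0.69 and 0.83) and at or below 1.04% in CD4 T-like, Treg-like, CD8 T-like and B-like barcodes of both libraries. The departure was called lower in B-like (-0.52 and -0.56), Treg-like (-0.61 and -0.51) and CD8 T-like barcodes (-0.57 and -0.61). CD4 T-like barcodes missed the fold in the WT library, at -0.45 and -0.61. The epithelial sum of ILC3-like barcodes was 821 CPM in the WT library and 4.89 CPM in the Ring1AKO library, and the departure of Rpl10 was as large in the latter.

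The stalk proteins gave a single departure. Rplp1, one of the acidic stalk proteins, took 4.17% and 4.37% of ribosomal protein UMIs in ILC2-like barcodes (departures 0.82 and 0.90), and between 1.95% and 2.66% (WT) and between 1.92% and 2.59% (Ring1AKO) in the other classes. Its level in ILC2-like barcodes was 13222 and 14094 CPM. Its partner Rplp2 stayed between 1.51% and 1.94% in the WT library and between 1.45% and 1.90% in the Ring1AKO library. Rplp0, which anchors both, was highest in plasma-like barcodes, at 1.63% and 1.91%, where it passed the fold in the WT library and not in the Ring1AKO library (0.54 and 0.44). Dendritic-like barcodes had Rps27 lower (-0.56 and -0.51). No subunit gene was called in CD4 T-like, gamma-delta T-like or NK/ILC1-like barcodes. Across the 77 subunit genes the departures of the libraries ran together, with a Pearson's r from 0.80 to 0.97 in 11 classes and of 0.59 in Treg-like barcodes. The genes share a library and a denominator and are not independent, so these values are a description.

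Other members ranked high or low in a class without reaching the fold in both libraries. In B-like barcodes these included Rps20 at 2.45% and 2.21% (departures 0.51 and 0.47) and Rps19, the gene most often mutated in Diamond-Blackfan anemia, at 1.99% and 2.07% (0.45 and 0.51). Among T-lineage barcodes Rpl12 had 0.39 and 0.43 in CD8 T-like and 0.26 and 0.31 in gamma-delta T-like barcodes. Rps15a had 0.35 and 0.42 in the first of these and 0.37 and 0.43 in the second.

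Rpl13a, a large-subunit protein, had 0.37 and 0.24 in CD4 T-like and 0.38 and 0.36 in CD8 T-like barcodes, against -0.43 and -0.41 in monocyte/macrophage-like barcodes. In Treg-like barcodes Rpsa had 0.31 and 0.52, and Rpl39 0.42 and 0.28. Rpl21 had 0.48 and 0.63 in ILC3-like barcodes, and Rpl31 had -0.47 and -0.51 in ILC2-like barcodes. In NK/ILC1-like barcodes Rpl27, Rpl38 and Rps15a led with departures between 0.20 and 0.28.

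Among the paralogues, Rps27l and Rpl36al were called in the most classes. Rps27l, a paralogue of Rps27 known as a target of p53, took 0.373% and 0.382% of ribosomal protein UMIs in plasma-like barcodes (departures 1.87 and 2.09) and 0.295% and 0.282% in dendritic-like barcodes (1.44 and 1.51). It was called lower in B-like, CD4 T-like, CD8 T-like, gamma-delta T-like and NK/ILC1-like barcodes, with 0.0349% and 0.0295% in B-like barcodes (-1.92 and -2.04). The means used for these calls hold the plasma-like and dendritic-like shares. As a part of the UMIs of Rps27l, Rps27 and Rps27rt together, Rps27l made up 23.3% (22.8 to 23.9) and 23.6% (22.9 to 24.3) in plasma-like barcodes. The same part was 16.4% (15.6 to 17.1) and 15.7% (14.99 to 16.5) in dendritic-like and 7.05% (6.75 to 7.37) and 6.99% (6.47 to 7.54) in monocyte/macrophage-like barcodes. It was 1.23% (1.14 to 1.32) and 1.03% (0.983 to 1.08) in B-like barcodes. Plasma-like and dendritic-like barcodes lay above all others in both libraries, whereas the order of the lower classes changed between them. In Treg-like barcodes the part was 3.82% (3.38 to 4.31) in the WT library and 6.55% (6.02 to 7.10) in the Ring1AKO library, and in ILC3-like barcodes 6.86% (5.94 to 7.88) and 3.94% (3.22 to 4.78), so these classes moved in opposite directions with intervals that did not overlap.

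Rpl36al, which encodes nearly the same protein as Rpl36a from a gene on another chromosome, followed a similar pattern. In plasma-like barcodes it took 1.23% and 1.33% of ribosomal protein UMIs (departures 1.89 and 2.10), and 67.2% (66.6 to 67.7) and 69.7% (69.0 to 70.4) of the UMIs of Rpl36al and Rpl36a together. It was called lower in B-like, CD4 T-like, CD8 T-like, gamma-delta T-like and ILC2-like barcodes. These calls are not independent of the plasma-like rise, since the plasma-like share is part of the mean used for each. They were -0.56 and -0.72 in CD4 T-like and -0.61 and -0.51 in gamma-delta T-like barcodes, and whether they hold without plasma-like barcodes was not tested. In B-like barcodes Rpl36al made up 27.8% (27.2 to 28.5) and 26.8% (26.5 to 27.2) of the pair, and in ILC2-like barcodes 27.7% (25.99 to 29.4) and 29.0% (26.6 to 31.5). Monocyte/macrophage-like and dendritic-like barcodes lay between, at 53.3% and 49.2% and at 49.4% and 47.3%. Rpl36al thus outnumbered Rpl36a in plasma-like barcodes of both libraries and was the minor member in lymphocytes. Rpl22l1, the paralogue of Rpl22, varied less, from 19.98% to 33.6% of its pair in the WT library and from 19.7% to 35.3% in the Ring1AKO library. In plasma-like barcodes it made up 26.6% (25.9 to 27.4) of the pair in the WT library and 19.7% (18.8 to 20.7) in the Ring1AKO library.

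**Figure D3:**
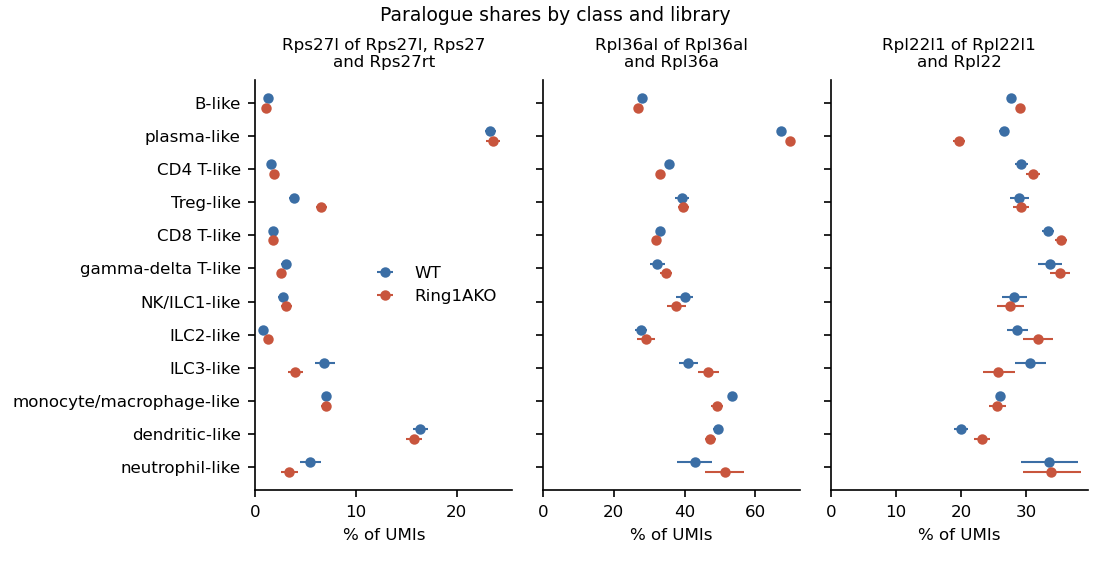
Part of the UMIs of a paralogue group (x axis, percent) that came from Rps27l, Rpl36al or Rpl22l1, by class and library, with exact 95% counting intervals. Rps27l and Rpl36al peak in plasma-like barcodes at 23.3% and 67.2% (WT), and Rpl22l1 varies between 19.7% and 35.3%.

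The other paralogues were scarce. Rps27rt, nearly identical in sequence to Rps27, held between 2.16% and 2.61% of their joint UMIs in the WT library and between 2.17% and 3.23% in the Ring1AKO library, and reads that fit both genes may have been split or lost. Its departures followed those of Rps27, at -1.02 and -0.93 in plasma-like and -0.66 and -0.62 in dendritic-like barcodes. Rpl7l1, which acts in ribosome assembly, was called only in dendritic-like barcodes (0.97 and 0.56, with 127 and 101 UMIs). Rpl39l, known from male germ cells, had 35 and 85 UMIs over all classes, Rpl3l, known from muscle, 48 and 14, and Rpl10l 1 and 0. The 7 genes with -ps symbols, left out by the rule, had 3256 and 4364 UMIs, or 0.0395% and 0.0379% of the members' UMIs.

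Members that encode no subunit made up little of the sum and some varied by class. The usual subunits made up between 98% and 99.3% of the members' UMIs in a class, and the paralogues and these genes the rest. Rps6ka1, a p90 ribosomal S6 kinase, was called lower in B-like barcodes (-1.70 and -2.27, with 102 and 202 UMIs). Rps6ka3, another p90 kinase, was called lower in B-like (-1.60 and -1.71) and CD8 T-like barcodes (-0.98 and -0.77). Rps6kb2, a p70 kinase that phosphorylates ribosomal protein S6, was called higher in plasma-like barcodes (0.78 and 1.12). These departures are shares of ribosomal protein UMIs, and the order of classes can differ over all UMIs. Over all UMIs Rps6kb2 was lower in plasma-like (177 of 14292504 and 120 of 11554029) than in B-like barcodes (108 of 6055281 and 312 of 17911143). Over the 12 classes Rps6kb1 had 2121 and 2395 UMIs, Rps6ka5 422 and 473, Rps19bp1 787 and 1078, Rps6kc1 129 and 114, and Rps6ka2 123 and 101. Rps6ka4, Rps6ka6, Rps6kl1 and Rps23rg1 had at most 10 UMIs in a library.

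Between the libraries, the summed share was higher in the Ring1AKO library in 8 of 12 classes and lower in 4. The log2 ratio of Ring1AKO over WT was 0.17 (0.16 to 0.17) in CD4 T-like, 0.16 (0.15 to 0.16) in Treg-like, 0.16 (0.15 to 0.17) in NK/ILC1-like and 0.14 (0.14 to 0.15) in B-like barcodes. It was 0.09 in monocyte/macrophage-like, 0.08 in dendritic-like, 0.04 in CD8 T-like and 0.03 in ILC2-like barcodes. The ratio was -0.08 in gamma-delta T-like, -0.09 in neutrophil-like, -0.12 in ILC3-like and -0.42 (-0.42 to -0.41) in plasma-like barcodes. Every ratio lay outside its counting error, and none reached 0.5 in size. Without immunoglobulin and mitochondrial UMIs the plasma-like ratio was 0.02, and the other classes moved little. Cell-free barcodes had a ratio of 0.22, more than any single class, and the part of cell-free RNA in the class ratios was not tested. From WT to Ring1AKO their share went from 17.3% to 20.2%, and that of all kept barcodes from 19.9% to 23.2%. The share of all kept barcodes mixes classes, and B-like barcodes went from 19.7% to 45.4% of them. The part of this change in either share was not tested.

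**Figure D4:**
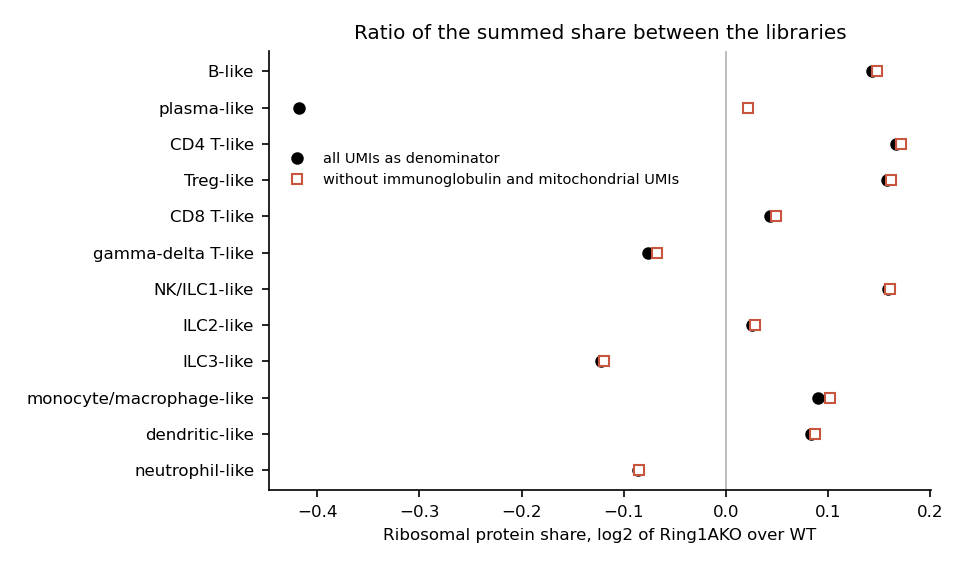
Log2 ratio of the members' share of UMIs, Ring1AKO over WT (x axis), in 12 classes. Black circles use all UMIs as the denominator and open squares leave out immunoglobulin and mitochondrial UMIs. The plasma-like class moves from -0.42 to 0.02 and the rest stay between -0.12 and 0.17.

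The sign of the ratio held at matched depth in B-like barcodes and turned in neutrophil-like barcodes. In B-like barcodes the ratio was 0.14 at 2000 to 4000 UMIs (30.4% and 33.4%, 498 and 1317 barcodes), 0.12 at 4000 to 8000 UMIs (33.7% and 36.7%, 564 and 1945 barcodes) and 0.19 at 8000 to 16000 UMIs (34.2% and 38.9%, 88 and 243 barcodes). CD4 T-like barcodes had 0.05, 0.18 and 0.17 in these ranges, and monocyte/macrophage-like barcodes 0.06, 0.19 and 0.12. CD8 T-like barcodes had 0.04, 0.06 and 0.00456, the smallest differences among these classes. Neutrophil-like barcodes, with -0.09 over all depths, had 0.86 at 2000 to 4000 UMIs (2.75% and 4.99%, 81 and 66 barcodes) and 0.10 at 4000 to 8000 UMIs (2.63% and 2.83%, 95 and 128 barcodes), and their median barcode was also higher in the Ring1AKO library, so their place among the lower classes depends on depth and on the summed UMIs. Hemoglobin genes, at 14.5 CPM in CD8 T-like barcodes of the WT library and 4887 CPM in those of the Ring1AKO library, are a source of other UMIs there, and their part in the ratio was not tested. With a limit of 40% ribosomal UMIs the ratio was 0.11 in both B-like and CD4 T-like barcodes.

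Single members were then compared between the libraries by the log2 ratio of their CPM, called at 0.5 or more in size, in 6 classes. The median of all genes tested was -0.18 in B-like, -0.47 in plasma-like, -0.08 in CD4 T-like, -0.06 in Treg-like, -0.11 in monocyte/macrophage-like and -0.14 in neutrophil-like barcodes, so the members' ratios stood above or near a shifted background. In B-like barcodes the members' median was 0.13; 2 of 88 were higher (Rpl14 and Rpl29) and 2 lower (Rps6ka1 and Rps6ka3), against 2.92% and 20.8% of all 8773 genes. In CD4 T-like barcodes the median was 0.17 and 5 of 85 were higher (Rplp0, Rpl29, Rpsa, Rpl14 and Rpl7l1) and none lower, against 6.99% and 17% of all genes. In Treg-like barcodes it was 0.18 and 8 of 85 were higher and 1 lower, against 15.4% and 23.1%. In these classes too the members called higher were no larger a share than the background.

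The remaining classes had members called lower only. Plasma-like barcodes had 23 of 87 lower and none higher, with a median of -0.43, against 47.5% and 0.837% of all genes. Monocyte/macrophage-like barcodes had a median of 0.06, with 1 of 88 lower (Rps6kb2) and none higher, against 17.3% and 8.28%. Neutrophil-like barcodes had a median of -0.11, with 4 of 81 lower (Rps27l, Rps26, Rpl10a and Rpl36a) and none higher, against 23.1% and 10.4%. In each of these classes the members' counts lay below what the background percentages would give.

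The subunit genes did not shift evenly once the ratio of the summed members was taken off each gene's ratio. The genes below were picked by their median over the classes. A like sign in most classes therefore follows in part from that choice. Other subunit genes differed by class, such as Rps2, which ran from -0.29 to 0.48 with a median of -0.01. The 6 highest medians over 12 classes were those of Rpl14 (0.33), Rplp0 (0.32), Rpsa (0.32), Rpl29 (0.31), Rpl21 (0.29) and Rpl4 (0.26). Rplp0, Rpsa, Rpl29 and Rpl21 lay above 0 in all 12 classes, and Rpl14 and Rpl4 in 11. Rplp0, as the stalk anchor, went from 2894 to 4009 CPM in B-like barcodes, a ratio of 0.47 (0.45 to 0.49), from 3472 to 5286 CPM in CD4 T-like barcodes, and from 2732 to 4319 CPM in Treg-like barcodes. Rpsa went from 4280 to 5938 CPM in B-like barcodes and from 3725 to 5893 CPM in Treg-like barcodes. Rpl14, a large-subunit protein, went from 1565 to 2214 CPM in B-like barcodes, a ratio of 0.50 (0.47 to 0.53).

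Among the lowest medians were those of Rpl41 (-0.30), Rpl31 (-0.27), Rpl37a (-0.24), Rpl37 (-0.22) and Rps28 (-0.22). Rpl41, Rpl37a, Rpl37 and Rps28 lay below 0 in all 12 classes, and Rpl31 in 11. Rpl41 went from 5257 to 4432 CPM in B-like barcodes, a ratio of -0.25 (-0.27 to -0.23), while the summed members were higher there. Rpl37a, a zinc-finger protein of the large subunit, went from 6221 to 5810 CPM in the same class. The acidic stalk proteins lay near 0, with medians of -0.01 for Rplp1 and -0.05 for Rplp2, apart from Rplp0. Class comparisons share a library on each side, so 12 classes are not 12 replicates of the ratio.

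Similar gene ratios were found outside cells, with a looser relation to transcript length. In cell-free barcodes, less the summed members, Rpl29 had 0.39, Rpl21 0.40, Rpsa 0.26, Rpl14 0.27 and Rplp0 0.16, whereas Rpl41 had -0.51, Rpl37a -0.39, Rps28 -0.35 and Rpl37 -0.26. Over the 77 subunit genes the cell-free ratio and the median of the classes had a Pearson's r of 0.85 (Spearman's rho 0.82). Transcript length came from 1 coding transcript per gene in GENCODE vM21. Principal transcripts were preferred, then the best supported, then the longest, so a length may exceed that of the mRNA in use. Transcript length had an r of 0.39 with the class median and of 0.40 with the cell-free ratio. Within single classes r ran from 0.18 in monocyte/macrophage-like to 0.41 in NK/ILC1-like barcodes. Rpl31, at 1049 bases, was among the lowest and Rpl29, at 733 bases, among the highest. The 9 subunit genes under 500 bases had a median of -0.12 with 8 of them below 0, the 17 from 500 to 700 bases -0.09, the 25 from 700 to 1000 bases 0.02 and the 25 from 1000 to 5000 bases 0.04, with Rps15a longer than these at 5179 bases. Among genes outside the list in B-like barcodes the medians were -0.11, -0.04, 0.02 and -0.15 in these ranges, and -0.41 in the 1585 genes of 5000 bases or more, so no steady trend with length held there. The points share the same libraries, and the part of length and cell-free RNA in the gene ratios was not tested.

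**Figure D5:**
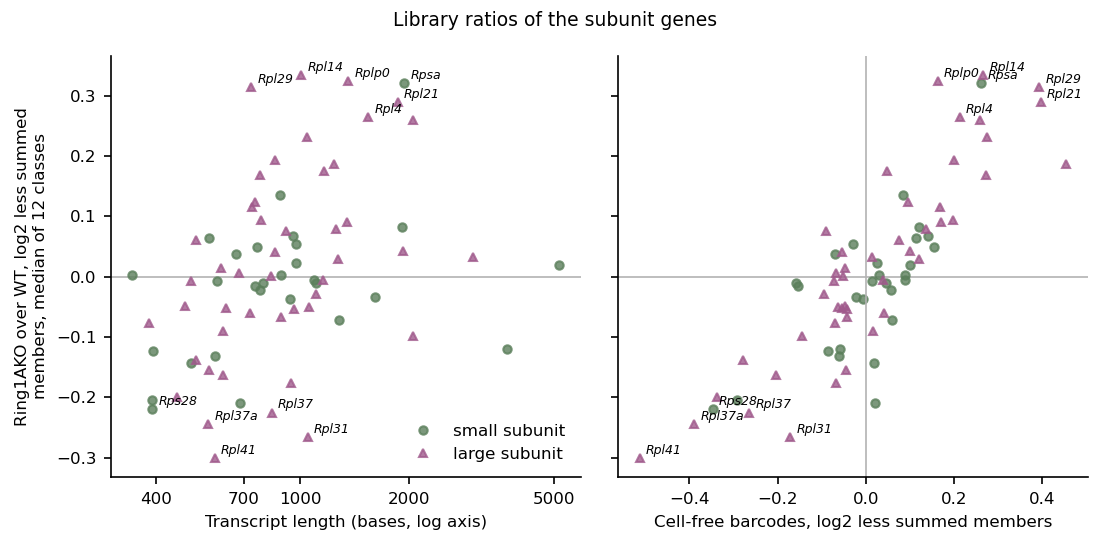
Log2 ratio of Ring1AKO over WT less that of the summed members, as the median of 12 classes (y axis), for subunit genes against transcript length (left, bases, log axis) and against the same ratio in cell-free barcodes (right). Points are genes, shaped by subunit, with some of the highest and lowest named. The right panel rises from Rpl41 at -0.51 and -0.30 to Rpl29 at 0.39 and 0.31, and the left panel is looser.

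Members on chromosome 17 near Ring1 did not stand together. Ring1 lies at 34020792 to 34024680 of GRCm38, and Rps18, at 33951999 to 33956001, lies 0.0648 Mb away, with Rps28, at 33819027 to 33824562, 0.196 Mb away. The median ratio less the summed members was 0.06 for Rps18, from -0.06 to 0.24 over the classes, and -0.22 for Rps28, from -0.35 to -0.05. Rpl10a, 5.69 Mb away, had -0.06 and Rps10, 6.38 Mb away, 0.00.

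Other genes of the same pathway were set beside the members. The 18 translation factors and other genes known to share the TOP start took 3.04% and 3.65% of UMIs in B-like, 3.22% and 3.88% in CD4 T-like and 2.37% and 2.71% in monocyte/macrophage-like barcodes. Over 12 classes their share had a Pearson's r of 0.97 and 0.98 with that of the members, both being shares of the same UMIs. Their median ratio was 0.23 in B-like barcodes. There 1 of 18 was higher (Eef1a1, the elongation factor that brings tRNA to the ribosome) and 1 lower (Nap1l1). Among all genes tested there, 2.92% were higher and 20.8% lower. The list's median was 0.25 in CD4 T-like barcodes with 1 higher (Eif3f), against 6.99% higher and 17% lower among all genes. In plasma-like barcodes it was -0.27 with 5 of 18 lower, against a median of -0.47 and 47.5% lower among all genes. Eef1a1 went from 4783 to 6842 CPM in B-like barcodes, a ratio of 0.52 (0.50 to 0.53). Rack1, a protein of the small subunit's head, had 0.41 in B-like and 0.48 in CD4 T-like barcodes, and Fau, made as a fusion with a ubiquitin-like protein, 0.10 and 0.03.

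Genes that build ribosomes moved with the members in some classes and not in others. Of 22 ribosome biogenesis genes, none of 22 tested was higher and 2 were lower in B-like barcodes (median -0.04). In CD4 T-like barcodes 1 of 16 was higher (Nip7) and 2 lower (Ncl and Nop58), with a median of -0.03. Among all genes, 2.92% were higher and 20.8% lower in B-like, and 6.99% and 17% in CD4 T-like barcodes. Ncl, the nucleolar protein nucleolin, had -0.43 (-0.48 to -0.38) in B-like and -0.59 (-0.70 to -0.48) in CD4 T-like barcodes, where the summed members were higher. In Treg-like barcodes 6 of 14 were higher and none lower, with a median of 0.07, against 15.4% and 23.1% of all genes. Ncl had -0.20 (-0.33 to -0.06) there. In plasma-like barcodes 10 of 19 were lower and none higher, with a median of -0.50, near the 47.5% and the median of -0.47 of all genes. The 78 genes of the mitochondrial ribosome had a median of -0.04 in B-like barcodes, with 0 of 78 tested higher and 3 lower, and of 0.55 in Treg-like barcodes, with 28 of 54 higher and none lower against the same background. Of the genes that control ribosomal protein mRNA, 1 of 10 tested was higher (Maf1, a repressor of RNA polymerase III) and 1 lower (Larp4) in B-like barcodes, with a median of 0.03. Larp1, which binds the TOP tract, had -0.40 (-0.51 to -0.28) in B-like, -0.33 (-0.59 to -0.07) in CD4 T-like and -0.43 (-0.68 to -0.20) in monocyte/macrophage-like barcodes. The medians of all genes tested in these classes were -0.18, -0.08 and -0.11, and Larp1 did not reach the fold in them. It passed the fold in plasma-like barcodes, at -0.91 (-1.09 to -0.73). There 5 of 10 genes of this list were lower (Mtor, Rptor, Larp1, Larp4 and Eif4ebp2), against 47.5% of all genes. Larp1 also had -0.52 in ILC3-like (61 and 42 UMIs) and -1.30 in neutrophil-like barcodes (25 and 12 UMIs). Mtor, the kinase upstream, had -0.14 (-0.50 to 0.26) in B-like barcodes with 80 and 217 UMIs, a difference not detectable at this depth. Myc, which drives ribosome production, had 0.23 (0.17 to 0.30) in B-like and 1.55 (1.09 to 2.002) in monocyte/macrophage-like barcodes, from 12.6 to 36.8 CPM. In Treg-like barcodes, where the members' share was higher, Myc was lower, at -0.53 (-0.94 to -0.11). Among all genes tested, 8.28% were higher in monocyte/macrophage-like and 23.1% lower in Treg-like barcodes. A link between Myc and the members' share was not tested.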

How the data were processed

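The data were 10x Genomics 3′ UMI counts of colonic LP cells in 1 library per group. The deposited matrices held unfiltered UMI counts per gene and barcode, whole numbers that the authors had not normalized. The submitters' processing notes name Cell Ranger 6.0.2, Seurat and mm39, whereas the matrix header names Cell Ranger 4 and the study's methods name another version and build, so which made these files is not settled. Totals were 74414511 UMIs (WT) and 81862096 (Ring1AKO).

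Barcodes were gated by at least 3 markers of a class (5 for plasma-like) with no other lineage passing. No doublet caller was run; barcodes passing several gates were left out. The methods of the study state a ribosomal limit of 40%, read as an upper limit; none was applied except as an alternative. Counts were summed per class, without tests. Shares have exact binomial, levels exact Poisson and ratios exact conditional 95% intervals. Gene ratios had 1 UMI added to each sum and at least 100 UMIs over both libraries. Python 3.11.15, numpy 2.4.6, scipy 1.17.1 and pandas 2.3.3 were used. The ratio intervals were tested on simulated data. Coordinates and lengths came from GENCODE vM21 (GRCm38) and promoters from RefSeq (GRCm38.p6), none mixed with the authors' build.

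Named genes were all members that are no usual subunit, the 3 largest departures in each direction per class (at least 100 UMIs in both libraries, the smaller size counting), the 6 highest and 6 lowest median library ratios among members tested in all 12 classes, members near Ring1 and the stalk genes. Genes of the second kind past neither fold are named in part; the other genes named were called ones, or were chosen after their values were seen (Mtor, Larp1, Myc, Eef1a1, Ncl, Rack1 and Fau, from the lists). The members and lists were chosen with earlier results of these data known. 10 alternatives were tried. Some genes that meet these rules are not reported here.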

Additional observations from a re-analysis of the deposited data

Results flagged for a closer look

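The members' share moved in opposite directions in different classes. The log2 ratio of Ring1AKO over WT was 0.14 in B-like and -0.42 in plasma-like barcodes, each from 1 library per group, and this difference was not tested. Immunoglobulin UMIs went from 59.0% to 69.6% of plasma-like UMIs, and without immunoglobulin and mitochondrial UMIs the plasma-like ratio was 0.02.

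Barcodes under 100 UMIs, which enter no class, carried the members as well. The members took 20.2% of the cell-free UMIs in the Ring1AKO library (8806664 UMIs) and 17.3% in the WT library (9760387 UMIs), a log2 ratio of 0.22. In all kept barcodes they took 23.2% in the Ring1AKO library and 19.9% in the WT library.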

How the results depend on the processing

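With 1 library per group, no library could be left out and no difference between the libraries was tested. No paired analysis was possible because each group had 1 library and no test was made. Values were compared with their counting intervals, which are narrow at this depth, so 36 of 70 values under an alternative moved past them, 32 did not and 2 changed sign. The values below are log2 ratios, with main values of 0.14 (B-like), 0.17 (CD4 T-like), 0.09 (monocyte/macrophage-like) and -0.42 (plasma-like) for Ring1AKO over WT, and of 0.80 (WT) and 0.85 (Ring1AKO) for B-like over monocyte/macrophage-like barcodes.

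Both changes of sign were in plasma-like barcodes: 0.02 without immunoglobulin and mitochondrial UMIs in the denominator, where immunoglobulin UMIs differed, and 1.18 at 2000 to 8000 UMIs, which left 4 and 7 barcodes. The plasma-like ratio was -0.37 with each barcode counting once, -0.32 with 4 markers (6 for plasma-like) and -0.49 with 5% cell-free RNA taken off. The B-like ratio was 0.11 with a ribosomal limit of 40%, 0.15 without immunoglobulin and mitochondrial UMIs, 0.14 at 2000 to 8000 UMIs and 0.13 without the top 5% of UMIs. The CD4 T-like ratio was 0.11 with the ribosomal limit, 0.17 without immunoglobulin and mitochondrial UMIs, and 0.16 with a mitochondrial limit of 10%, with each barcode counting once, with 4 markers and without the top 5% of UMIs. The monocyte/macrophage-like ratio was 0.10 without immunoglobulin and mitochondrial UMIs, 0.07 with each barcode counting once, 0.08 with 4 markers, 0.16 at 2000 to 8000 UMIs and 0.09 without the top 5% of UMIs.

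B-like over monocyte/macrophage-like was, for WT and Ring1AKO, 0.76 and 0.77 with the ribosomal limit, 0.82 and 0.87 without immunoglobulin and mitochondrial UMIs, with 4 markers and without the top 5% of UMIs, 0.82 and 0.90 with each barcode counting once, 0.83 and 0.88 with cell-free RNA taken off, 0.94 and 0.91 at 2000 to 8000 UMIs, 0.80 (WT) with only the usual subunits and 0.84 (Ring1AKO) at a minimum of 2000 UMIs. Of the 47 departures, 46 or 47 were kept under 8 of the 10 alternatives, among them the change of denominator, which cannot alter a departure. With each barcode counting once 88 were called, among them 46 of the 47; with only the usual subunits 27 were called; and at 2000 to 8000 UMIs 34 of the 47 were kept. Those lost there included Rps27, Rps9, Rps27rt, Rpl10 and Rps6kb2 in plasma-like, Rps27, Rps27rt and Rpl7l1 in dendritic-like, Rpl10 in B-like and Rpl36al in gamma-delta T-like barcodes, and Rps27rt in plasma-like barcodes turned to 0.62 in the WT library.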
